A study of Mus musculus with 9 samples.

Results

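The Usp17-like genes, also called DUB genes, encode deubiquitinases of the ubiquitin-specific protease (USP) class. They were taken as the deposited rows whose name is Dub followed by a digit or starts with Usp17l, which gave 5 genes of 25965: Dub1, Dub1a, Dub2a, Dub3 and Usp17l5. RNA was sequenced from E14 mouse embryonic stem cells (ESCs) of 129/Ola background, grown without feeders in serum and LIF. The study describes its knockdowns in ESCs that carry the fluorescent reporters MERVL::tdTomato and Zscan4c::eGFP. Cells received control, Dppa2 or Dppa4 siRNA at the start and again before collection at 96 h (4 d), and 3 libraries of polyadenylated RNA, A, B and C, were made per treatment. The siRNAs were tested in 1 cell line, with RNA from whole cultures, so fewer cells of a type and less RNA per cell cannot be told apart. The study describes the replicates of the knockdown experiment as biological. The sample titles call them rep3A, rep3B and rep3C in each treatment, and do not say whether they were separate cultures or parts of 1 replicate. The p-values measure the spread between these libraries. Values are deposited log2 expression with the distributions of the libraries matched by the authors, and a gene with 0 reads stands at -4.50 to -4.47. Reads per gene were inferred by ranking the distinct values of a library, and counts past its first skipped value (89 reads in control library B, 126 in C and 381 in A) are approximate. The estimated depth on genes was 24.7, 40.4 and 19.4 Mreads in control libraries A, B and C, 25.9, 20.1 and 17.3 Mreads with Dppa2 siRNA, and 27.5, 28.8 and 21.4 Mreads with Dppa4 siRNA.

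Deubiquitinases cut ubiquitin from proteins and so counter the ubiquitin ligases that mark proteins for the proteasome or for signalling. The mouse DUB genes are a multicopy family of short genes with few exons, first described as immediate early genes that cytokines induce in lymphoid and other blood cells. Dppa2 and Dppa4 are nuclear proteins with a SAP domain that bind chromatin in ESCs, and 2C-like cells are a rare, transient state within ESC cultures that transcribes genes of the early embryo.

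The targeted transcripts were read first. Dppa2 stood at 7.26, 7.16 and 6.94 on the log2 scale in control libraries A, B and C, at 3.36, 3.86 and 3.68 with Dppa2 siRNA, and at 7.01, 7.17 and 7.03 with Dppa4 siRNA. Dppa4 stood at 7.02, 7.11 and 7.06 in control libraries, at 7.11, 7.07 and 7.17 with Dppa2 siRNA, and at 6.16, 6.14 and 6.09 with Dppa4 siRNA. Each target was lowest, without overlap, in the 3 libraries labelled with its siRNA. The RNA left of the targets differed, since on the linear scale 8.98% of the control level of Dppa2 remained with Dppa2 siRNA and 52.4% of that of Dppa4 with Dppa4 siRNA.

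The Usp17-like genes were expressed in control ESCs and nearly silent in both knockdowns. Dub1, the founding member, described as a cytokine-induced gene of blood cells, had log2 expression of 2.68, 2.57 and 1.89 in control libraries A, B and C. It stood at -4.05, -4.48 and -4.47 with Dppa2 siRNA and at -3.38, -3.37 and -2.38 with Dppa4 siRNA. The control libraries lay above all 6 knockdown libraries, and the 3 Dppa4 siRNA libraries lay above the 3 Dppa2 siRNA libraries without overlap. The share of all tested genes without such overlap was not counted, so statements on overlap are descriptions. Dub1 (annotated as Usp17la, ENSMUSG00000054568) lies on the plus strand of chromosome 7 from 104857009 to 104862667 in GRCm38 and has 3 exons. Behind these values were 215, about 334 and 91 reads in control libraries A, B and C, against 1, 0 and 0 reads with Dppa2 siRNA and 3, 3 and 4 reads with Dppa4 siRNA.

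Dub1a (Usp17lb, ENSMUSG00000062369) lies 14.4 kb from Dub1 on the minus strand, from 104840257 to 104842603, and has 2 exons. Its log2 expression was 3.21, 2.89 and 2.67 in control libraries A, B and C, -4.49, -2.65 and -3.65 with Dppa2 siRNA, and -4.49, -3.37 and -3.97 with Dppa4 siRNA. The control libraries were again apart from the knockdown libraries, which overlapped each other. About 312, 421 and 161 reads in the control libraries compared with 0, 3 and 1 reads with Dppa2 siRNA, and the same numbers with Dppa4 siRNA.

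Dub2a (Usp17ld, ENSMUSG00000057321), a relative of the interleukin-induced Dub2 gene, has 2 exons on the minus strand from 103249737 to 103252505. It stood at 1.16, 0.70 and -0.03 in control libraries A, B and C, at -4.05, -4.48 and -3.65 with Dppa2 siRNA, and at -4.49, -4.23 and -4.49 with Dppa4 siRNA. It had the fewest control reads of the family, 72, about 92 and 26, and the knockdown libraries overlapped each other and not the control. With Dppa2 siRNA it had 1, 0 and 1 reads and with Dppa4 siRNA 0, 1 and 0 reads.

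Dub3 (Usp17le, ENSMUSG00000043073) lies on the minus strand from 104768160 to 104777470 with 4 exons in the deposited transcript, and its human namesake is known for stabilising the cell cycle phosphatase Cdc25a. Its log2 expression was 3.48, 3.12 and 1.71 in control libraries A, B and C, -2.38, -4.48 and -3.65 with Dppa2 siRNA, and -2.61, -4.23 and -3.40 with Dppa4 siRNA. The control libraries were high and did not overlap the others, and control library C was the low one. The reads were about 374 and 491 and then 81 in control libraries, 5, 0 and 1 with Dppa2 siRNA, and 5, 1 and 2 with Dppa4 siRNA. Usp17l5 (Usp17lc, ENSMUSG00000058976) has 2 exons on the plus strand from 103415072 to 103419880. Its log2 expression was 2.68, 2.64 and 2.27 in control libraries A, B and C, -2.63, -3.21 and -4.47 with Dppa2 siRNA, and -3.38, -3.80 and -3.97 with Dppa4 siRNA. Here too the control libraries lay above the knockdown libraries, which overlapped each other. Its reads were 215, about 350 and 120 in control libraries, 4, 2 and 0 with Dppa2 siRNA, and 3, 2 and 1 with Dppa4 siRNA.

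**Figure D1:**
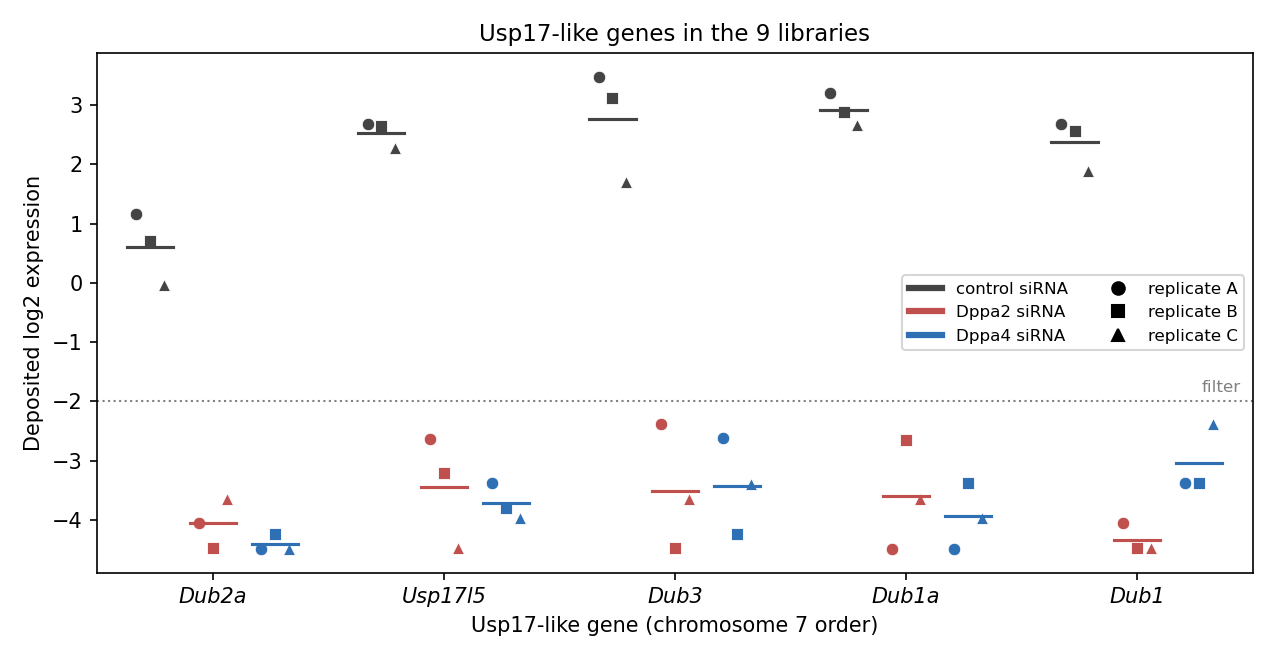
Deposited log2 expression (vertical axis) of each Usp17-like gene in the 9 libraries. Points are libraries, with shapes for replicates A, B and C and colours for the siRNA, short lines are group means, and the dotted line is the log2 value of -2 used by the filter on low values. All control libraries lie at -0.03 or above, and all knockdown libraries at -2.38 or below.

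Differences were fitted with limma to the 14601 genes above a log2 value of -2 in at least 3 of the 9 libraries. A gene was called when its Benjamini-Hochberg adjusted p was below 0.05 and it also passed an intensity difference filter at 0.05, which compares its change with those of the 1% of genes nearest in mean expression. All 5 Usp17-like genes passed the filter on low values, each only through the 3 control libraries, so the number called among them is a description and no support by itself. Of these, 5 of the 5 were called lower with Dppa2 siRNA, where 1.53% of tested genes were called lower and 0.377% higher. With Dppa4 siRNA 5 of the 5 were called lower as well, where 1.58% of tested genes were called lower and 0.37% higher. Both comparisons use the same control libraries, so their values are set side by side and not counted as separate evidence. Under a stricter filter, a log2 value above 0 in 3 libraries, 3 of the family were called lower in each knockdown. Dub2a was then not tested, and the intensity difference filter was missed by Dub1 with Dppa2 siRNA and by Usp17l5 with Dppa4 siRNA, whose limma adjusted p were 4.63e-05 and 0.000117.

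For Dub1, limma gave a log2 difference from control of -6.72 (SE 0.39, adjusted p = 6.05e-05) with Dppa2 siRNA and of -5.43 (SE 0.39, adjusted p = 0.000122) with Dppa4 siRNA. In the same fit Dub1a differed from control by -6.52 in Dppa2 siRNA cells (SE 0.49, limma adjusted p = 0.000158) and by -6.86 in Dppa4 siRNA cells (SE 0.49, limma adjusted p = 0.000122). The differences of Dub3 from control were -6.28 and -6.19 in the same order (SE 0.67 for both), at limma adjusted p of 0.00107 and 0.00127. It had the largest error of the 5 genes, with a control SD of 0.937 (n = 3). For Usp17l5 they were -5.97 and -6.25 (SE 0.46 for both), at limma adjusted p of 0.00017 and 0.000143. For Dub2a they were -4.67 and -5.01 (SE 0.44 for both), at limma adjusted p of 0.000554 and 0.000394. Because the knockdown values stand near the level of 0 reads, the log2 differences depend on the value given to 0 reads. With a pseudocount of 1 on the linear scale the same differences shrank to between -1.27, for Dub2a with Dppa2 siRNA, and -3.01, for Dub1a with Dppa4 siRNA.

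The inferred reads give the residual transcript without that scale. Counted over the 3 libraries of a group and divided by estimated depth, Dub1 with Dppa2 siRNA had 1 read against about 640 in control, which is 0.209% of control (exact 95% interval 0.00527% to 1.17%). Dub1 had 10 reads in Dppa4 siRNA cells, which is 1.7% (0.811% to 3.15%). These intervals are Clopper-Pearson intervals and cover counting error only, because no molecular identifiers marked duplicates of a molecule. Dub1a had 4 reads in each knockdown against about 894 in control, which is 0.597% (0.162% to 1.53%) for Dppa2 and 0.487% (0.132% to 1.25%) for Dppa4 siRNA. Dub2a, with about 190 control reads, kept 1.41% (0.169% to 5.15%) from 2 reads in Dppa2 siRNA cells and 0.572% (0.0144% to 3.23%) from 1 read in Dppa4 siRNA cells. Its intervals are the widest of the family and do not separate it from any other member. Dub3 kept 0.847% (0.31% to 1.85%) and 0.92% (0.396% to 1.82%) of the control level with Dppa2 and Dppa4 siRNA, from 6 and 8 reads against about 946. Usp17l5 kept 1.17% (0.428% to 2.56%) and 0.953% (0.348% to 2.08%), from 6 reads in each knockdown against about 685.

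The whole family had about 1188, 1688 and 479 reads in control libraries A, B and C, or 48.1, 41.8 and 24.7 reads per estimated Mread. It had 11, 5 and 3 reads with Dppa2 siRNA (0.425, 0.249 and 0.173 per Mread) and 11, 10 and 8 reads with Dppa4 siRNA (0.4, 0.347 and 0.374 per Mread). The knockdown libraries overlapped each other and lay far below the control libraries. Over each group this was 0.756% (0.455% to 1.18%) of control for Dppa2 siRNA, which left 8.98% of its target, and 0.94% (0.629% to 1.35%) for Dppa4 siRNA, which left 52.4% of the RNA of its own. The intervals of the residual family level overlap, and whether it depends on the depth of knockdown was not tested, and target protein is not part of these data. The summed linear level of the 5 genes was 35.5, 29.9 and 19.1 in control libraries, 0.518, 0.402 and 0.328 with Dppa2 siRNA, and 0.444, 0.372 and 0.459 with Dppa4 siRNA. Of each knockdown sum, 0.222 to 0.225 is what 5 genes with 0 reads add up to. Without Dub1a, the gene with the highest mean log2 value in control, the sums were 26.3, 22.5 and 12.8 in control libraries, 0.474, 0.243 and 0.249 with Dppa2 siRNA, and 0.4, 0.275 and 0.395 with Dppa4 siRNA.

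The knockdowns were also compared with each other. Between Dppa4 and Dppa2 siRNA, 0 of the 5 Usp17-like genes were called by limma with the intensity difference filter, and 0 by limma alone, where 3 of 14601 tested genes (0.0205%) were called. At an unadjusted p under 0.05 limma gave 1 of the 5 genes and 987 of all tested genes. The 1 gene was Dub1, whose log2 level was 1.29 higher with Dppa4 siRNA (limma SE 0.39 and adjusted p = 0.648) and higher in 3 of 3 libraries than in any Dppa2 siRNA library. That difference rests on 10 reads against 1, and ranged from 0.10 to 1.46 over the alternatives tried. For the other members the log2 differences were 0.09 for Dub3, -0.28 for Usp17l5, and -0.34 for Dub1a and for Dub2a, with adjusted p from limma of 0.965 to 0.999. With 1 library left out the sign changed for Dub3 (-0.40 without Dppa2 siRNA replicate B and -0.31 without Dppa4 siRNA replicate A). It also changed for Usp17l5 (0.12 without Dppa2 siRNA replicate A) and for Dub1a (0.13 without Dppa2 siRNA replicate B). No difference between the knockdowns was called for these genes, and the size of difference that could be detected at these depths was not tested.

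Levels were compared between the genes per length, as reads per kb of the annotated transcript and estimated Mread in control cells. Dub1a had 8.11, 6.69 and 5.33 in control libraries A, B and C (6.71 ± 1.39, SD, n = 3), and Dub3 had 9.31, 7.47 and 2.57 (6.45 ± 3.49, SD, n = 3). Usp17l5 had 3.62, 3.61 and 2.57 (3.27 ± 0.6, SD, n = 3), and Dub1 had 3.28, 3.11 and 1.77 (2.72 ± 0.829, SD, n = 3). Dub2a was lowest, at 1.47, 1.15 and 0.674 (1.1 ± 0.399, SD, n = 3). In this order Dub1a and Dub3 overlapped, Usp17l5 and Dub1 overlapped each other and the range of Dub3 but not Dub1a, and the 3 values of Dub2a lay below every value of the other 4 genes. The lengths used were 1558, 1626, 2403, 2656 and 1987 bases for Dub1a, Dub3, Usp17l5, Dub1 and Dub2a, and reads shared between copies make this order uncertain, as given with the sequences. These order statements are descriptions, with no test.

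The 5 genes had 1 order within the control group. All 5 genes were highest in control library A, intermediate in B and lowest in C, an order that 27.5% of all tested genes had, and 39.4% of tested genes were lowest in C. The range across control libraries was 1.77 on the log2 scale for Dub3, 1.19 for Dub2a, 0.79 for Dub1, 0.54 for Dub1a and 0.42 for Usp17l5. The order was also that of 6 of the 15 deposited markers of 2C-like cells (Zscan4d, Zscan4e, Zscan4f, Zfp352, Tdpoz3 and Tdpoz4), and of 3 of the 5 genes outside the family most like Dub1, given below (Zscan4e, Zscan4f and Gm12800). Other markers ran in the reverse order, lowest in A and highest in C (Zscan4c, Tmem92, Tcstv1 and Gm428). Tcstv3 and Sp110 were also highest in C, so the markers had no common order. Control library C was the shallowest of the control libraries and B the deepest, and the part of depth or of any other library property in this order was not tested. Over the 14601 tested genes, deviations from the group mean in control library A correlated most with those in Dppa2 siRNA library B (r = 0.692), and those of control library C with Dppa2 siRNA library A (r = 0.528), and the part of this in the order was not tested either. The order was noticed after the values were seen.

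All 5 genes lie on chromosome 7 within 1612.9 kb, in a pair (Dub2a and Usp17l5, 162.6 kb apart) and a trio (Dub3, Dub1a and Dub1, with 62.8 and 14.4 kb between neighbours) that are 1348.3 kb apart. The deposited table has 59 other genes within 250 kb of a Usp17-like gene. Of these, 58 are olfactory receptor (Olfr) genes, and all 58 had 0 reads in all 9 libraries. The remaining gene, AC125170.1, lies 86509 bases from the nearest member and was the only one of the 59 that was tested. Its log2 level was 2.93, 3.21 and 3.88 in control libraries A, B and C, and its differences from control were 0.34 in Dppa2 siRNA cells (limma adjusted p = 0.582) and 0.03 in Dppa4 siRNA cells (limma adjusted p = 0.975). Between the pair and the trio, farther than 250 kb from either, lie another 49 genes, of which 4 were tested, all of them Trim genes, and 0 were called by limma with the intensity difference filter in either knockdown, or had an unadjusted p under 0.05. Among them Trim6, at 6.43, 6.03 and 5.54 in control libraries A, B and C, differed from control by 0.06 (adjusted p = 0.979 from limma) and 0.02 (adjusted p = 0.985 from limma). Among the 10 genes tested in this stretch of chromosome 7, those called were the Usp17-like genes. They passed the filter on low values only through their control libraries, so this is a description and no contrast with their neighbours. Genes that did not pass the filter on low values were not tested, among them Trim30d, which lies 260311 bases from the nearest member and had 8, 9 and 3 reads in control libraries A, B and C and 0 reads in all 6 knockdown libraries.

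**Figure D2:**
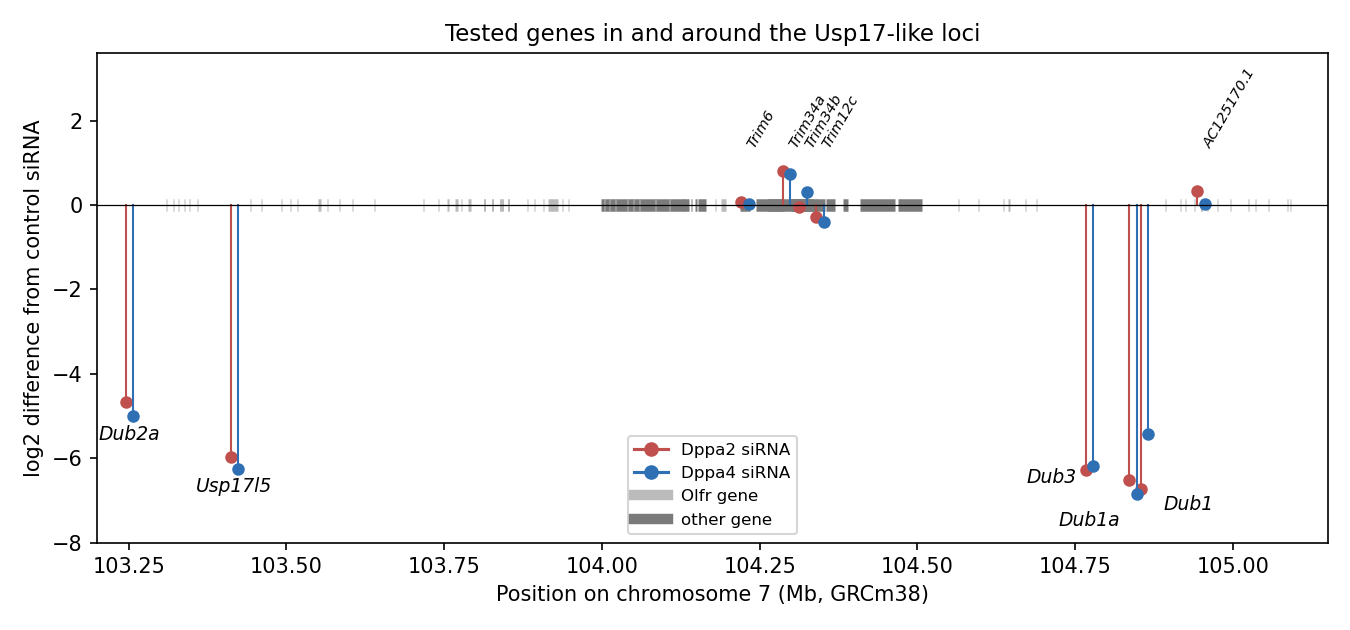
Position on chromosome 7 in Mb (horizontal axis, GRCm38) and log2 difference from control siRNA (vertical axis) of each tested gene in and around the Usp17-like loci. Stems in the 2 colours stand for the 2 knockdowns and are set slightly apart around the middle of a gene, and blocks on the zero line mark the other deposited genes. The 5 Usp17-like genes reach -4.67 to -6.86, and the 58 Olfr genes within 250 kb had 0 reads.

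The copies resemble each other closely, which bears on how reads were assigned. Coding sequences of Dub2a and Usp17l5, both 1635 bases without the stop codon, were identical at 1609 positions (98.4%). The other pairs of the family were 90.8% to 94.7% identical over the aligned bases, with coding lengths of 1620 bases for Dub3, 1578 for Dub1 and 1404 for Dub1a. Of the 50-base stretches of the Dub2a transcript, 50.4% also occur in Usp17l5, and 41.5% of those of Usp17l5 occur in Dub2a. The shares found in any other member were 44.5% for Usp17l5 and, for Dub3, Dub1a and Dub1, 24.5%, 20.5% and 15.3%. The share of stretches found in no other annotated gene was 48.9% for Dub2a, 55.3% for Usp17l5, 69.0% for Dub3, 78.2% for Dub1a and 80.4% for Dub1. Reads of 1 copy may therefore have been counted for another, most of all between Dub2a and Usp17l5, and the levels of single members are uncertain to that extent. Stretches shared with annotated genes other than these 5 made up 4.97% to 17.5% per member. For all but Dub1 they lay nearly all in Usp17le-ps, a Usp17-like pseudogene by its name, and Gm5053, with 9.7% and 8.5% of the stretches of Dub3 and 1.33% and 11.4% of those of Dub1a. The part of reads that match several genes in the levels, or in the family sum, was not tested, and the expression of annotated copies outside the 5 deposited rows was not analysed here.

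The sequence just upstream of the genes was also nearly the same in the members at hand. RefSeq promoters (GRCm38.p6) of 300 bases were matched by symbol for 4 of the 5 members, all but Dub3. The letters TATAAA were found on either strand in 3 of the 4 promoters, those of Dub2a, Usp17l5 and Dub1a, and in 13.6% of all 32851 promoters of that length. Windows of 130 bases around these letters were 90.0% to 96.2% identical between members. They are shown as a stretch that these 4 copies share, as they share much of their coding sequence. The letters and the window were chosen after the sequences were seen. The windows end upstream of the RefSeq start, at chr7:103252606-103252735 (minus strand) for Dub2a, chr7:103416488-103416617 (plus) for Usp17l5, chr7:104842605-104842734 (minus) for Dub1a and chr7:104856850-104856979 (plus) for Dub1. Those of Dub2a, Dub1a and Dub1 lie outside the annotated gene, and that of Usp17l5 lies in the intron of its longer annotated transcript and upstream of the shorter one. Capitals mark the box, which begins 110, 88, 31 and 46 bases before the RefSeq start of Dub2a, Usp17l5, Dub1a and Dub1. In Dub1 the box differs from that of the other members by A2T, with positions counted from 1 at the 5′ end of the box.
Dub2a: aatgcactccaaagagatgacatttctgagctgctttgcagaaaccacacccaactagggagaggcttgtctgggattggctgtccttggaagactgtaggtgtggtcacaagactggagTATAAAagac
Usp17l5: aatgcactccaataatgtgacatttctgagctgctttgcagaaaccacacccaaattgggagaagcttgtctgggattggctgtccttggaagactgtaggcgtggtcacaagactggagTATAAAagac
Dub1a: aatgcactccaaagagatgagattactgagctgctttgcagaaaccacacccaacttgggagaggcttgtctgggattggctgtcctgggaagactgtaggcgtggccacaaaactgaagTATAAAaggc
Dub1: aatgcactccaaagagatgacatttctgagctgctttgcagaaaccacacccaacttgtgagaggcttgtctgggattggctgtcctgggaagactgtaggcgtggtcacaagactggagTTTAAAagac
The letters are a match in the reference and not a measured site, and their part in the level of these genes was not tested.

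Of the other deubiquitinases 1 was called, a share near that over all tested genes. Of the 50 other USP genes deposited, 48 were tested, and with Dppa2 siRNA 0 were called lower and 1 higher (1.53% and 0.377% of all tested genes), with a median log2 difference of -0.04 against 0.02 over all tested genes. With Dppa4 siRNA 0 were called in either direction (1.58% lower and 0.37% higher of all tested genes), with a median of -0.05 against 0.03 over all tested genes, and limma gave an unadjusted p under 0.05 for 2 and 7 of the 48 with Dppa2 and Dppa4 siRNA, against 15.7% and 18.0% of all tested genes. The 1 called gene was Usp11, at 4.42, 4.49 and 4.32 in control libraries A, B and C and at 4.99, 4.74 and 5.01 with Dppa2 siRNA, a log2 difference of 0.50 (SE 0.11, adjusted p = 0.0391 from limma). Its call was lost with any 1 of the 9 libraries left out, with adjusted p from limma of up to 0.182, without Dppa2 siRNA replicate C, and through the intensity difference filter without Dppa2 siRNA replicate B. It was lost too with the replicate letter as a block (adjusted p = 0.131 from limma) and with only the 2 groups fitted (adjusted p = 0.165 from limma). Without the filter on low values, Y-linked Usp9y was called lower as well with Dppa2 siRNA (log2 difference -2.27, SE 0.68, limma adjusted p = 0.0361), from 19, 13 and 4 reads in control libraries A, B and C and 1, 0 and 0 reads. Usp25, at -0.59 with Dppa4 siRNA (SE 0.24, limma adjusted p = 0.232), was called lower there without control replicate C (-0.85, limma adjusted p = 0.0451). The lowest log2 difference of the 48 was that of Usp26, -2.49 and -2.42 with Dppa2 and Dppa4 siRNA, which was not called (adjusted p = 0.29 and 0.27 from limma). Usp26 had 66, 34 and 12 reads in control libraries A, B and C, 2, 16 and 0 with Dppa2 siRNA and 5, 2 and 6 with Dppa4 siRNA, so that Dppa2 siRNA library B overlapped the control libraries. The summed linear level of the other USP genes, of which Usp7 was the most abundant, was 2910, 2420 and 2050 in control libraries, 2190, 2720 and 2240 with Dppa2 siRNA, and 2210, 2320 and 2530 with Dppa4 siRNA.

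A further list of deubiquitinases, mostly of other classes (UCH, OTU, Josephin, JAMM and MINDY, with Zufsp, and Cyld of the USP class), was tested for 33 of 33 genes, and limma with the intensity difference filter called 0 in either knockdown, with an unadjusted p under 0.05 for 3 genes in each. At the shares over all tested genes just given, a count of 0 called in a list of this size or smaller says little about the list. Their medians were 0.01 and -0.06 with Dppa2 and Dppa4 siRNA. Genes of proteins that have been described as substrates of USP17 or DUB3, such as Cdc25a and Snai1, were tested for 11 of 12, with 0 called and an unadjusted p under 0.05 from limma for 1 gene in each knockdown. Their medians were -0.06 and -0.01, and changes of these proteins were not measured.

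A list of 14 genes that act upstream of DUB genes in blood cells held cytokine receptors, kinases and the transcription factors Stat5a and Stat5b. Of these, 9 were tested, and Csf2rb, Csf2rb2 and Il5ra had 0 reads in all 9 libraries. With Dppa2 siRNA limma with the intensity difference filter called 0 of the 9 (2 with an unadjusted p under 0.05, median 0.12). With Dppa4 siRNA 1 was called lower and 0 higher (3 with an unadjusted p under 0.05 from limma, median -0.21). This was the kinase gene Jak1, at 4.98, 4.80 and 4.56 in control libraries A, B and C and at 4.01, 4.18 and 4.32 with Dppa4 siRNA, a log2 difference of -0.61 (SE 0.13, adjusted p = 0.0422 from limma). The call was lost with any 1 library left out other than control replicate C, with adjusted p from limma of up to 0.179, without Dppa4 siRNA replicate A. It was lost too with the replicate letter as a block (limma adjusted p = 0.137), with only the 2 groups fitted (0.11), without the filter on low values (0.0667) and without the intensity trend (0.0517). With Dppa2 siRNA Jak1 was not called (log2 difference -0.38, limma adjusted p = 0.197), except without the filter on low values (limma adjusted p = 0.0481). The cytokine receptor subunit gene Il2rg stood at 0.76, 0.86 and 0.82 in control libraries A, B and C, at 1.68, 1.25 and 1.92 with Dppa2 siRNA, and at 1.89, 1.75 and 1.46 with Dppa4 siRNA. All 6 knockdown libraries lay above the control libraries, with log2 differences of 0.81 and 0.89 (SE 0.20 for both, adjusted p = 0.0647 and 0.0447 from limma), and Il2rg was not called, since with Dppa2 siRNA it passed neither limma nor the intensity difference filter, and with Dppa4 siRNA it missed that filter.

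Markers of 2C-like cells were also low in both knockdowns. Of 17 listed genes 15 were deposited and 13 tested. For 10 of these no knockdown library lay above the filter's log2 value of -2, and Zscan4c and Tmem92 also needed their control libraries to pass. The counts over those tested are therefore a description and no median is given. With Dppa2 siRNA 12 were called lower (1.53% of all tested genes were) and with Dppa4 siRNA 13 (1.58% of all tested genes). In the knockdown itself 5 and 3 of the 13 tested had 0 reads. Under the stricter filter 4 were called lower in each knockdown (Zscan4c, Zscan4d, Gm8994 and Tmem92). Zscan4b, Zscan4e, Zscan4f, Zfp352, Tcstv3 and Sp110 kept log2 differences of -4.89 to -6.72 there (limma adjusted p of 4.63e-05 to 0.00906) and missed the intensity difference filter, and Tcstv1, Tdpoz3 and Tdpoz4 were not tested. The summed linear level of the list, of which Zscan4d was the most abundant gene, was 94.8, 93.9 and 89.9 in control libraries, 1.55, 0.939 and 1.75 with Dppa2 siRNA, and 1.38, 1.22 and 1.21 with Dppa4 siRNA. Of the genes with the largest decreases, Zscan4d, of a telomere-associated zinc finger family, had 17 reads in each knockdown against about 3344 in control, which is 0.679% (0.395% to 1.09%) for Dppa2 and 0.553% (0.322% to 0.887%) for Dppa4 siRNA. Zscan4c kept 0.792% (0.394% to 1.42%) and 0.821% (0.448% to 1.38%), Zscan4f had 0 reads with Dppa2 siRNA against about 598 in control, at least 149-fold lower, and Sp110 kept 0.381% (0.046% to 1.38%) with Dppa4 siRNA. The gene not called with Dppa2 siRNA was Tdpoz3, which missed the intensity difference filter and was called without control replicate A, B or C (adjusted p = 0.0266, 0.0239 and 0.00908 from limma). Its call with Dppa4 siRNA was lost without Dppa4 siRNA replicate B or C (adjusted p = 0.0243 and 0.0205 from limma), through the same filter. A shorter list of 8 markers is part of the longer one, without Tdpoz3, and adds no separate evidence. Of its genes 7 of 7 tested were called lower in each knockdown (1.53% and 1.58% of all tested genes). For 4 of the 7 no knockdown library lay above a log2 value of -2. For Tcstv1, with 10, 31 and 14 reads in the control libraries, the intensity difference filter was missed in both knockdowns without control replicate C (adjusted p = 0.0271 and 0.0263 from limma). It was also missed without any 1 replicate of the knockdown itself, with limma adjusted p of 0.0236 to 0.0286 for Dppa2 siRNA and 0.0278 to 0.0366 for Dppa4 siRNA. Among the untested genes, Gm6763 of the longer list had 0 reads in all 9 libraries. The part of a changed number of 2C-like cells in the decrease of the Usp17-like genes was not tested.

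Over the 9 libraries, 3 of the 5 genes outside the family whose profile was most like that of Dub1 are in the list of 2C-like markers, Zscan4e, Gm8994 and Zscan4f. By the root mean square difference of log2 values taken relative to the control mean, the 5 were Zscan4e (0.51), Gm12800 (0.54), Gm8994 (0.62), Gm8038 (0.64) and Zscan4f (0.75). Zscan4e stood at 2.82, 2.61 and 0.82 in control libraries A, B and C and had 0 reads in the 3 Dppa2 siRNA libraries and 0, 3 and 2 reads with Dppa4 siRNA. On the same measure the other members stood at 0.83 (Dub3), 0.84 (Usp17l5), 1.07 (Dub1a) and 1.27 (Dub2a). The knockdown libraries lie near the level of 0 reads, so this measure depends also on the control level of a gene and on the value given to 0 reads, and the order of the genes on it is a description.

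**Figure D3:**
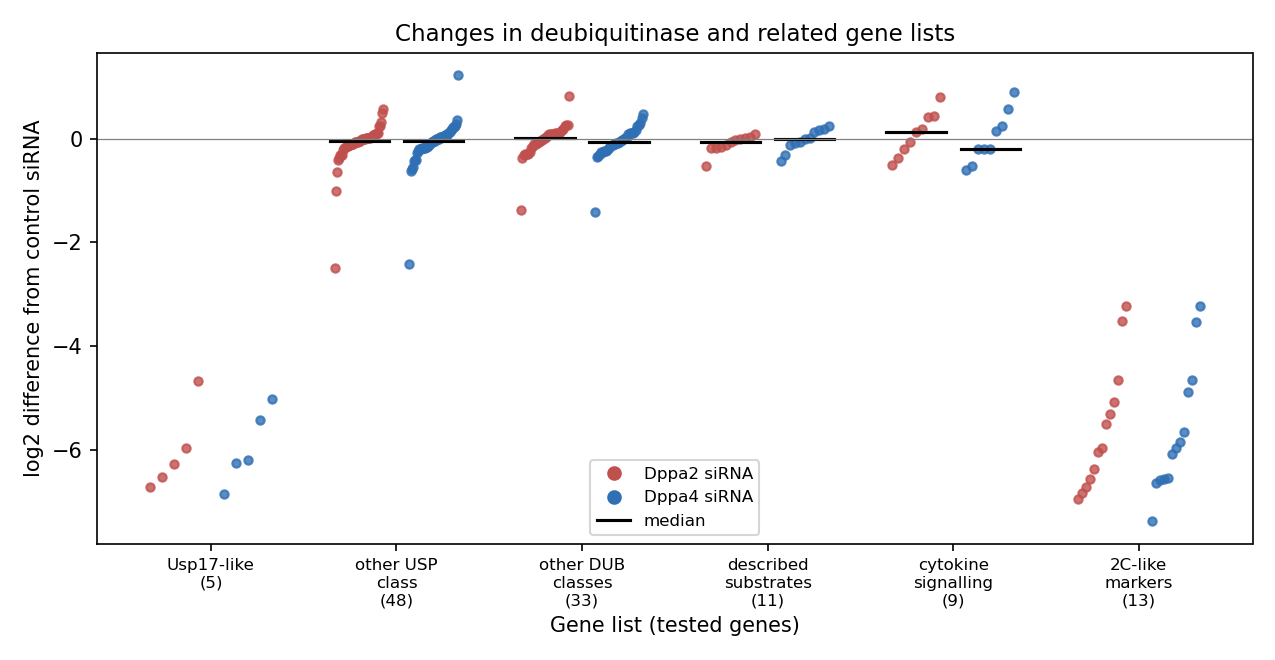
Log2 difference from control siRNA (vertical axis) of each tested gene of the Usp17-like family and of 5 gene lists, with the number tested under each name. Points are genes, in order of value within a list and coloured by siRNA, and black lines are list medians, which are left out for the family and the 2C-like markers because all or most of their genes were tested only through the control libraries. The medians of the other lists lie between -0.21 and 0.12.

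Markers of other cell types were examined beside these values. Of the 8 ESC markers, Pou5f1 the most abundant, 0 were called by limma with the intensity difference filter in either knockdown, and 0 had an unadjusted p under 0.05. Their summed linear level was 3530, 3780 and 3100 in control libraries, 3650, 3740 and 3540 with Dppa2 siRNA, and 3440, 3610 and 3580 with Dppa4 siRNA. Of 7 primitive endoderm markers 0 were called, with 3 and 5 at an unadjusted p under 0.05 from limma with Dppa2 and Dppa4 siRNA and medians of 0.57 and 1.20. Their summed level, Dab2 the most abundant, was 13.2, 14.0 and 10.2 in control libraries, 13.7, 16.8 and 17.3 with Dppa2 siRNA, and 19.6, 22.0 and 21.1 with Dppa4 siRNA, and 2 of them passed limma alone with Dppa4 siRNA. Mesoderm and ectoderm markers gave 0 called of 7, with 3 at an unadjusted p under 0.05 from limma in each knockdown and medians of -0.33 and -0.46. Of the fibroblast markers 2 of 5 were tested and of the trophoblast markers 3 of 4, with 0 called by limma with the intensity difference filter and 0 at an unadjusted p under 0.05, and Postn had 0 reads in all 9 libraries. The part of these cell types in the decrease of the Usp17-like genes was not tested.

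Lymphoid markers were examined because DUB genes are known from lymphoid cells. The part of lymphoid cells in the level or the decrease of the Usp17-like genes was not tested. Ptprc, which marks leukocytes, had 0 reads in 8 of the 9 libraries and 1 read in Dppa4 siRNA library B. Of the 2 markers tested, Cd3e, a subunit of the T cell receptor complex, stood at 1.14, 1.01 and 1.33 in control libraries A, B and C, at -1.56, -4.48 and -3.65 with Dppa2 siRNA, and at -1.04, -2.13 and -0.96 with Dppa4 siRNA. All knockdown libraries lay below the control libraries. Cd3e was called lower with Dppa2 siRNA (log2 difference -4.39, SE 0.67, adjusted p = 0.00809 from limma) and not with Dppa4 siRNA (log2 difference -2.53, SE 0.67, limma adjusted p = 0.0818), where it was called without Dppa2 siRNA replicate A or B (adjusted p = 0.0161 and 0.047 from limma), with only the 2 groups fitted (limma adjusted p = 0.0171) and with the pseudocount of 1 (limma adjusted p = 0.00107). Its call with Dppa2 siRNA was lost under the stricter filter, where it missed the intensity difference filter (limma adjusted p = 0.00985). Cd79a differed by -1.74 and -1.50 and was not called, since it missed the intensity difference filter. In control libraries the summed linear level of the lymphoid markers was 3.95, 4.21 and 4.38. It was 1.09, 0.737 and 0.967 with Dppa2 siRNA, and 1.26, 1.07 and 1.39 with Dppa4 siRNA. Cd79a was the most abundant over the 9 libraries, while Cd3e had the higher mean log2 value in control (1.16 against 0.80).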

How the data were processed

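RNA-seq libraries of E14 ESCs were compared between control, Dppa2 and Dppa4 siRNA, 3 libraries each. The authors trimmed reads (Trim Galore 0.4.5 in the submitters' processing notes), mapped them to GRCm38 with HISAT2 2.0.5, quantitated them in SeqMonk, matched the distributions of the libraries, and deposited log2 values. The members and the gene lists were chosen with earlier results of these data known. The deposited values are not counts, so limma 3.58.1 (R 4.3.3, intensity trend, treatment as the only term) took the place of the DESeq2 test that the authors used, with Benjamini-Hochberg adjustment over 14601 genes. The authors' intensity difference filter was rebuilt from the spread, taken as normal, of the 1% of genes closest in mean. The script was tested on simulated data.

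Each step between distinct values of a library was taken as 1 read, which holds up to the first skipped value of a library, at 89 to 435 reads, and is approximate above it, and totals were estimated from the slope between 100 and 300 reads and are approximate. Transcripts came from GENCODE and promoters from RefSeq, and coding sequences were aligned in Biopython. Of the listed genes, 4 deubiquitinases were matched by older symbols. Named were all family members, the targets, called genes within 250 kb, called list genes (of more than 6, the 3 largest changes in a direction), and the 5 profiles most like Dub1. Genes named outside this rule, such as Usp26, Usp9y, Usp25, Il2rg, Tdpoz3, Tcstv1, Cd3e, Cd79a, the genes in the control order, Trim30d and the other neighbours, were chosen after their values were seen. Tables and plots were made in Python 3.11.15 (pandas 2.3.3, numpy 2.4.6, matplotlib 3.10.9, scipy 1.17.1). Alternatives covered the filter on low values, a pseudocount, centring, the trend, the libraries fitted, a replicate block, limma alone, and leaving out each library.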

Additional observations from a re-analysis of the deposited data

How the results depend on the processing

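Tests were repeated under up to 17 alternatives, 9 of which left out 1 library (a gene that did not pass the stricter filter has 16), and no called result changed direction. With 1 library left out, 5 Usp17-like genes were called lower in each knockdown, and 0 between the knockdowns. The stricter filter, a log2 value above 0 in 3 libraries, gave 3 and 3 called lower with Dppa2 and Dppa4 siRNA, where Dub2a was not tested, and lowered the number of all genes called lower to 137 from 224 in Dppa2 siRNA cells and to 145 from 230 in Dppa4 siRNA cells. Without a filter 340 genes were called lower with Dppa2 siRNA, and 231 with Dppa4 siRNA. With 1 library left out, 170 to 204 genes were called lower in Dppa2 siRNA cells and 140 to 232 in Dppa4 siRNA cells (replicate A of Dppa4 siRNA left out gave 149 and replicate B 140), and 1 to 3 between the knockdowns (1 without Dppa4 siRNA replicate B or C). The cause was not tested. In all, 926 of 1015 alternative values kept their call or stayed close, 52 lost and 11 gained a call, and 26 moved.

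No pairing by replicate letter was seen in the correlations of deviations from the group mean. Same-letter libraries of different treatments had correlations of -0.585 to 0.367 over 9 pairs, and 2 of 9 libraries correlated best with their own letter. Deviations within a group depend on each other, so these values cannot tell whether same-letter libraries were handled together. Pairs with different letters had correlations of -0.658 to 0.692. With the letter as a replicate block, 5, 5 and 0 Usp17-like genes were called in the 3 comparisons, with 167 and 156 genes called lower in the knockdowns and 1 gene called between them in place of 3.

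Depth limits the residual levels, which rest on 1 to 10 reads per gene and knockdown.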
